A study of Mus musculus with 2 samples.

Results

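The 38 genes described here encode the machinery by which the endoplasmic reticulum (ER) takes in, folds and discards secretory proteins. They were selected by gene symbol from the 24421 symbols counted in a pair of liver RNA-seq libraries, and all 38 symbols were present. No cut on measured values was used, but earlier results of these data were known when the genes were chosen. Of them, 17 encode folding factors (chaperones, their cofactors, lectins and oxidoreductases), 8 encode factors of ER-associated degradation (ERAD), 12 encode subunits of the translocation and signal peptide cleavage machinery, and 1, Xbp1, encodes a transcription factor.

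The livers came from male C57BL/6 mice that began a high-fat diet at 6 weeks of age and stayed on it for 12 weeks. 1 library came from mice with floxed Rora alleles and no Cre (RORα f/f), here called control. The other came from RORα f/f:Alb-Cre mice and is labelled a liver-specific knockout (LKO). Both genotypes carried the floxed alleles and ate the same diet, and no group on another diet or without floxed alleles was analysed here. The albumin promoter drives Cre in hepatocytes, so the other cells of the liver were to keep Rora. The sources used here do not give whether a library held RNA from 1 mouse or from several. By its title, the series asks which genes RORα, a nuclear receptor, alters as fatty liver disease progresses.

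Secretory proteins enter the ER through the Sec61 channel, helped by the translocon-associated protein (TRAP) complex, and lose their signal peptide to the signal peptidase. Inside, the HSP70 chaperone BiP, the HSP90 chaperone GRP94, the lectins calnexin and calreticulin, and the disulfide isomerases fold them. Chains that do not fold are pulled back to the cytosol and degraded through ERAD. When unfolded chains build up, the sensors IRE1, ATF6 and PERK start the unfolded protein response. IRE1 splices Xbp1 mRNA, and spliced XBP1 and cleaved ATF6 switch on many of these genes. Hepatocytes, which secrete most plasma proteins, depend on this machinery.

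With 1 library per genotype there is no spread between replicates, so no test was made and no p-value is given. Levels are given as CPM, a gene's count relative to a library size adjusted with edgeR's TMM factors, which discount the genes that differ most. Each ratio sets the library labelled LKO against control and carries an exact 95% interval that covers counting error only. Genes are called measured where both counts together reached 20 and the mean level reached 1 CPM. A measured gene is called higher or lower where the ratio passed 1.5-fold and 1 lay outside the interval. The libraries held 128201591 counts (control) and 131843686 counts (labelled LKO), and 11137 genes were measured. TMM sets the bulk of genes at no change, with a median log2 ratio of 0.00 over all measured genes. Scaling by total count instead adds 0.42 to every log2 ratio, and leaving the 20 most abundant genes out of the totals adds 0.12. Rora had 3701 and 3677 counts, or 33.4 and 24.1 CPM, 1.38-fold lower and short of the threshold. With total-count scaling its log2 ratio was −0.05. A count over the whole gene can include exons outside the deleted part, so it checks the genotype only in part, and the label is used here as given.

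Several of the 38 genes carry the ER stress response element (ERSE) in their promoters, the sequence through which ATF6 acts together with the factor NF-Y. Windows from 250 bases before to 50 bases from the RefSeq start site (GRCm38.p6) were found for 31 of the 38 genes. Manf, Hyou1, Derl1, Sec61a1, Ssr2, Spcs3 and Sec11c were not matched. On either strand, the ERSE was searched as CCAAT and CCACG separated by 9 bases, and the related ERSE-II as ATTGG and CCACG separated by 1 base. Only exact matches were counted, so copies with a changed base were missed. ERSE was present for 10 of the 31 genes, or 32.3%, against 37 of all 27025 genes with a window, or 0.137%. ERSE-II was present for 2 of the 31, against 0.0444% of all genes. The list was made of genes of this machinery, many of them switched on by ATF6. The choice of genes thus favours a high share, and these shares are no test. The element is shown here for its 11 ERSE copies and 2 ERSE-II copies, in order from the lowest log2 ratio to the highest, because these genes hold it more often than all genes do. Each line gives the gene, the distance of the first base of the element from the start site (the start site being 0), the position and strand of the printed stretch, and the stretch read along the gene's strand. Capitals mark the bases of the element that were searched, and CGTGG with ATTGG is an ERSE on the opposite strand.
Creld2 ERSE, −126, chr15:88819500-88819558, plus strand: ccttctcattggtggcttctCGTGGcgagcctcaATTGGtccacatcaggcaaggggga
Hspa5 ERSE, −65, chr2:34772005-34772063, plus strand: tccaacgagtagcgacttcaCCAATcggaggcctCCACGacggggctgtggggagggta
Derl3 ERSE, −156, chr10:75893222-75893280, plus strand: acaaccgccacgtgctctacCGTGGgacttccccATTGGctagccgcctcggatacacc
Pdia6 ERSE, −98, chr12:17266471-17266529, plus strand: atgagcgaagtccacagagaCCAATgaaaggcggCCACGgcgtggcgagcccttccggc
Dnajb11 ERSE-II, 7, chr16:22857832-22857882, plus strand: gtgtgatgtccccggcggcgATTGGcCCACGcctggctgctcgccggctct
Ero1lb ERSE, −201, chr13:12565662-12565720, plus strand: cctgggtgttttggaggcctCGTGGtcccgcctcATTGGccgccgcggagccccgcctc
Dnajc3 ERSE, −105, chr14:118937807-118937865, plus strand: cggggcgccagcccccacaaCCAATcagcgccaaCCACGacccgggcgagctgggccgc
Syvn1 ERSE, −44, chr19:6046512-6046570, plus strand: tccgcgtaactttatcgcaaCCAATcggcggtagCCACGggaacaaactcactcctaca
Hsp90b1 ERSE, −212, chr10:86705618-86705676, minus strand: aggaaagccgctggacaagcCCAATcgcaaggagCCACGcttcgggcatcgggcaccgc
Hsp90b1 ERSE, −107, chr10:86705513-86705571, minus strand: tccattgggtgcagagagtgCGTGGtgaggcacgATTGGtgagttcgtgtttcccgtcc
Calr ERSE, −162, chr8:84847055-84847113, minus strand: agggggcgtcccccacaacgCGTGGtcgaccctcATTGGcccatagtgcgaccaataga
Canx ERSE, −145, chr11:50325780-50325838, minus strand: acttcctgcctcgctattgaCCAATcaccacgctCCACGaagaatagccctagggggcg
Herpud1 ERSE-II, −52, chr8:94386357-94386407, plus strand: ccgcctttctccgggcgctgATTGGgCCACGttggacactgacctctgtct

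The Hspa5 promoter is given whole, since Hspa5 is the reference gene of the response. It lies at chr2:34771840-34772139 on the plus strand (GRCm38.p6, RefSeq), ends 50 bases into the gene, and capitals mark the exact ERSE match. Copies with a changed base are not marked.
Hspa5 promoter: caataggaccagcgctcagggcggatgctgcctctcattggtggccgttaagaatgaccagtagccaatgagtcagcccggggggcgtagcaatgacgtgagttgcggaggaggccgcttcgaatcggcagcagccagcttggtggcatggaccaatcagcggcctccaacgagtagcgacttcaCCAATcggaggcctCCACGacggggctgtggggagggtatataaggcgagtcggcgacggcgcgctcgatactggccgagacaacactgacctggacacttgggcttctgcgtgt

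**Figure D1:**
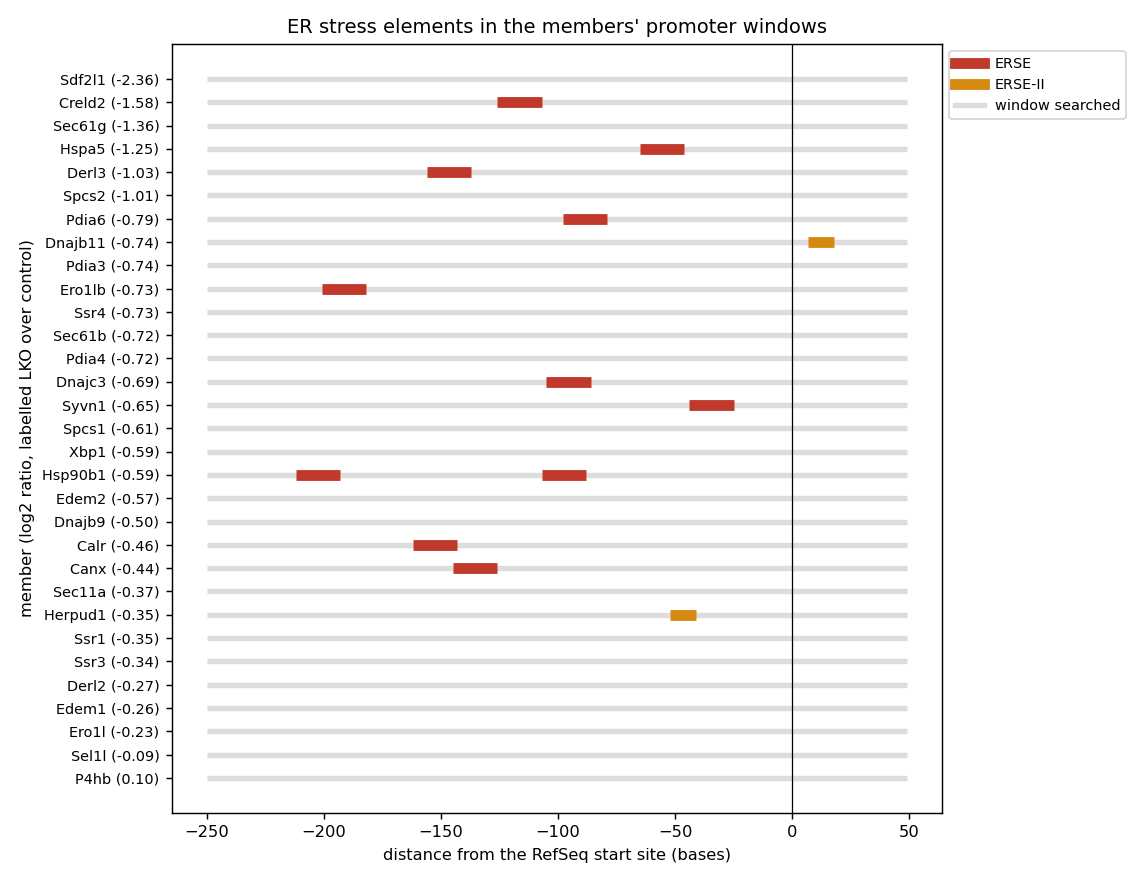
Position of ERSE (red) and ERSE-II (orange) in the promoter window of each of the 31 matched genes, with the distance from the RefSeq start site in bases on the x axis and genes ordered by log2 ratio, labelled LKO over control. ERSE sits upstream of the start site in all 10 genes that hold it, and no translocon or signal peptidase subunit among those matched holds either element.

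Genes with the element lay inside the range of those without it. The 9 measured members with an ERSE had log2 ratios from −1.58 to −0.44, with a median of −0.69, and 7 of them were at least 1.5-fold lower. The 21 measured members with a window but no exact ERSE ran from −2.36 to 0.10, with a median of −0.57, and 10 were at least 1.5-fold lower. They include Dnajb11 and Herpud1, which hold an ERSE-II. Outside the list, 8 measured genes held an ERSE, with a median of 0.09, and 4 of the 8 lay below 0. They and Krtcap2 are named here after their values were seen. Acacb, an acetyl-CoA carboxylase gene, and Acnat2, an acyltransferase gene, had log2 ratios of 1.89 and 1.36. Zfp57 stood at −0.64, and Hnrnpa3, Spats2l, Alg12, Pan2 and Adcy3 lay between −0.29 and 0.52. Zfp57 had 1.26 CPM (control) and 0.813 CPM (labelled LKO), and Adcy3 had 0.884 and 1.27 CPM. Each was thus measured only through the library where it was higher. Among 6 measured genes outside the list with an ERSE-II, Krtcap2, an oligosaccharyltransferase subunit gene, had the lowest log2 ratio at −0.69. Of the other motifs searched, TGACGTGG (an element bound by spliced XBP1 and ATF6, which can overlap CCACG on the opposite strand) was found in 0 of the 31 windows against 0.714% of all genes. TAGGTCA, a site for a single ROR protein, was found in 0 of 31 against 2.97%. TGATGCAA, an ATF4 site, was found for 1 gene, Herpud1, against 1.03%. A match describes letters in this window and says nothing of binding.

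Most of the 38 genes were lower in the library labelled LKO, and folding factors led. Of the 37 measured, 21 were at least 1.5-fold lower and 0 at least 1.5-fold higher. Over all measured genes 9.76% were lower and 10.5% higher by the same rule. At 2-fold, 7 of the 37 were lower and 0 higher, against 2.62% and 3.83% of all measured genes. The median log2 ratio was −0.60, and 36 of 37 lay below 0. Sdf2l1, among the 21 and the 7 above, was measured only through the control library. Among the 9636 genes outside the list in the same range of mean CPM, from 1.90 to 553, the median was 0.00 and 8.60% were at least 1.5-fold lower. Raw counts of the 37 summed to 492345 and 496333, so the direction of their sum depends on the scaling. With total-count scaling the median was −0.18, 27 of 37 lay below 0, and 7 were at least 1.5-fold lower, while the median of all measured genes became 0.42. Of all 11137 measured genes 1865 then lay below 0. The share of 9.76% holds for TMM scaling, and the matching share with total counts is not given here. With TMM scaling, all 5 measured Kupffer cell markers were lower in the library labelled LKO, and 4 of 7 stellate cell and fibroblast markers higher, by the 1.5-fold rule. Sums, and values with total-count scaling, are given at the end, and the part of these cells in the counts was not tested. Several genes sit close to the 1.5-fold threshold. Hsp90b1, Xbp1, Spcs1 and Sec61a1 lay just past it, with log2 ratios from −0.59 to −0.61, and Edem2 and Ssr2 just short of it at −0.57 and −0.55.

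**Figure D2:**
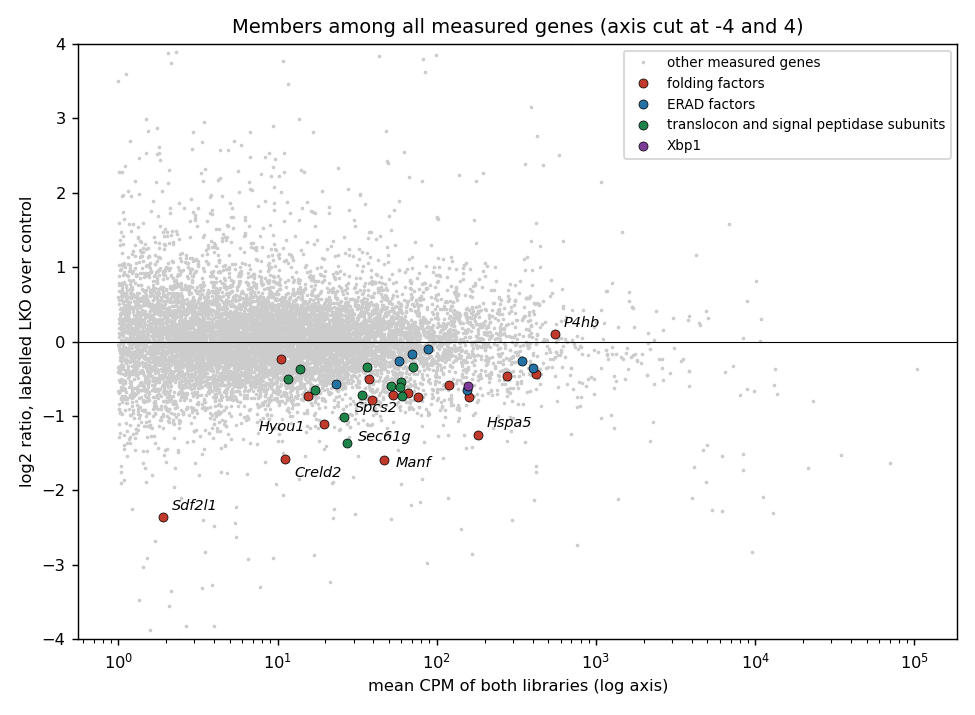
Log2 ratio (labelled LKO over control) against mean CPM on a log axis for all measured genes between −4 and 4 (grey) and for the 37 measured members, coloured by role. The members run from 1.90 to 553 CPM, and P4hb is the member that lies above 0.

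The folding factors differed most. Their median log2 ratio was −0.73, and by the 1.5-fold rule 12 of 17 were lower and 0 higher. With a minimum mean of 10 CPM, which leaves out Sdf2l1, 11 of 16 were lower and the median was −0.72. Of 7 measured ERAD factors only 1 was at least 1.5-fold lower, with a median of −0.27. Of 12 translocon and signal peptidase subunits 7 were, with a median of −0.60. The median of the folding factors lay 0.47 below that of the ERAD factors, a distance that no scaling of the libraries alters. Members of a group are not replicates, so these distances have no test.

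**Figure D3:**
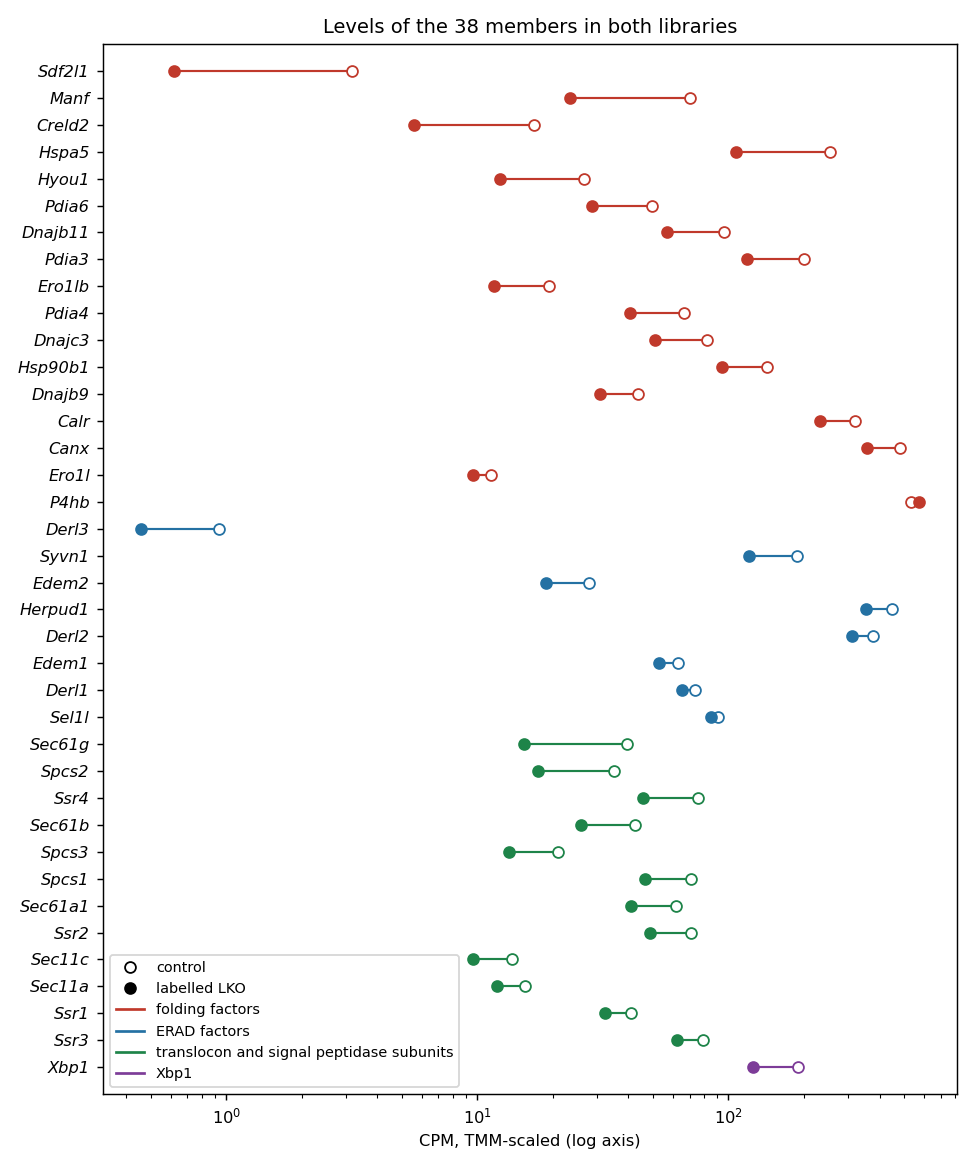
TMM-scaled CPM of the 38 genes on a log axis in the control library (open) and the library labelled LKO (filled), by role and ordered by ratio within each role. The filled point lies left of the open point for 37 genes, and P4hb is the exception.

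BiP and the genes grouped with it held 5 of the 6 lowest ratios among the 37 measured genes, and Sec61g, at −1.36, lay between Creld2 and Hspa5. Of the 9 genes for HSP70, HSP90 and their cofactors, 8 were at least 1.5-fold lower, 5 at least 2-fold lower, and the median log2 ratio was −1.10. Their levels summed to 736 CPM (control) and 383 CPM (labelled LKO). Those 5 genes, Sdf2l1, Manf, Creld2, Hspa5 and Hyou1, were also at least 1.5-fold lower with total-count scaling. A minimum mean of 10 CPM leaves out Sdf2l1, which passed the filter on low values only through control. Of the 8 genes left, 7 were at least 1.5-fold lower, with a median log2 ratio of −0.92.

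Hspa5 (chr2:34772090-34776529) encodes BiP, the main HSP70 of the ER lumen. Its counts were 28255 (control) and 16345 (labelled LKO), or 255 and 107 CPM, and pairs of values from here on keep that order. That is 2.38-fold lower (interval 2.33 to 2.42), and 1.47% of measured genes had a lower ratio. Hyou1 (chr9:44379490-44392369) encodes GRP170, a large relative of BiP that also serves as its nucleotide exchange factor. It stood at 2944 and 1884 counts, 26.6 and 12.4 CPM, and was 2.15-fold lower (interval 2.03 to 2.28).

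Sdf2l1 (chr16:17130138-17132383) encodes a lumenal partner of BiP and its J proteins. It had the lowest ratio of the 38, with 352 and 94 counts, or 3.18 and 0.616 CPM, 5.15-fold lower. Its interval of 4.09 to 6.54 is the widest of the folding factors, and its counts were the fewest. It passed the filter on low values only through the control library, so it had to be lower to be counted here. Manf (chr9:106888753-106891938) encodes a secreted, ER-retained factor that binds BiP. It had 7803 and 3571 counts, 70.4 and 23.4 CPM, and was 3.01-fold lower (interval 2.89 to 3.13). Vprbp, whose exons share 146 bases with Manf on the opposite strand, went from 864 to 1126 counts. Creld2 (chr15:88819646-88826681), an ER stress-induced gene for a thiol-active protein, had 1857 and 852 counts, 16.8 and 5.59 CPM, with a log2 ratio of −1.58 (fold interval 2.76 to 3.26). Of all measured genes 0.431% had a ratio below that of Sdf2l1, 0.862% below Manf and 0.871% below Creld2.

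The J proteins, which bring clients to BiP, differed less. Dnajb11 (ERdj3) had 10609 and 8712 counts and was 1.68-fold lower. Dnajc3 (p58IPK) had 9075 and 7760 counts and was 1.61-fold lower. Dnajb9 (ERdj4), which also restrains IRE1, had 4842 and 4712 counts and a ratio 1.41-fold lower, short of the threshold. Hsp90b1, which encodes GRP94, had 15795 and 14442 counts, 142 and 94.7 CPM, and was lower with a log2 ratio of −0.59 (fold interval 1.47 to 1.54). Once ratios were adjusted for their trend with the length and GC content of transcripts, its log2 ratio was −0.47, inside the threshold.

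Neither lectin chaperone gene passed the threshold. Calr, for lumenal calreticulin, had 35255 and 35199 counts, or 318 and 231 CPM, a ratio 1.38-fold lower. Canx, for membrane-bound calnexin, had 53716 and 54567 counts, or 485 and 358 CPM, a ratio 1.35-fold lower. Their raw counts were nearly equal between libraries, and with total-count scaling the log2 ratios were −0.04 and −0.02. The count of Calr relative to Canx was 0.656 and 0.645. Both promoters carry the ERSE shown above.

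Oxidoreductases, which form and shuffle disulfide bonds, split, with 4 of 6 lower. Pdia6 had 5486 and 4359 counts, Pdia3 22087 and 18164, and Pdia4 7348 and 6157. They were 1.73-fold, 1.67-fold and 1.64-fold lower. P4hb (chr11:120560298-120573253), for the founding member of the disulfide isomerases, which is also a subunit of collagen prolyl hydroxylase, went the other way. It had 59112 and 87233 counts, or 533 and 572 CPM, 1.07-fold higher (interval 1.06 to 1.08). Hence there were 2.68 and 4.80 P4hb reads for each Pdia3 read. Collagen genes of the stellate cell and fibroblast markers were higher in the same library, with values given below, and their part in the P4hb value was not tested.

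ERO1 oxidases recharge the disulfide isomerases, and their pair of genes had unlike ratios. Ero1lb, the isoform enriched in secretory tissue, had 2136 and 1769 counts, 19.3 and 11.6 CPM, and was 1.66-fold lower (interval 1.56 to 1.77). Ero1l, the broadly expressed isoform, had 1257 and 1471 counts, 11.3 and 9.65 CPM, a ratio 1.18-fold lower (interval 1.09 to 1.27). The intervals of the pair did not overlap, but they cover counting error only and hold no spread between mice. The direction of Ero1l depended on scaling, with a log2 ratio of −0.23 that became 0.19 with total counts, as did that of P4hb in size, from 0.10 to 0.52. Of the pair, Ero1lb carries an ERSE in its window and Ero1l does not.

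Xbp1 (chr11:5520641-5525993) encodes the factor that IRE1 activates by splicing. It had 21038 and 19190 counts, 190 and 126 CPM, and was 1.51-fold lower (interval 1.48 to 1.54). A count over the whole gene does not tell spliced from unspliced Xbp1 mRNA.

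**Figure D4:**
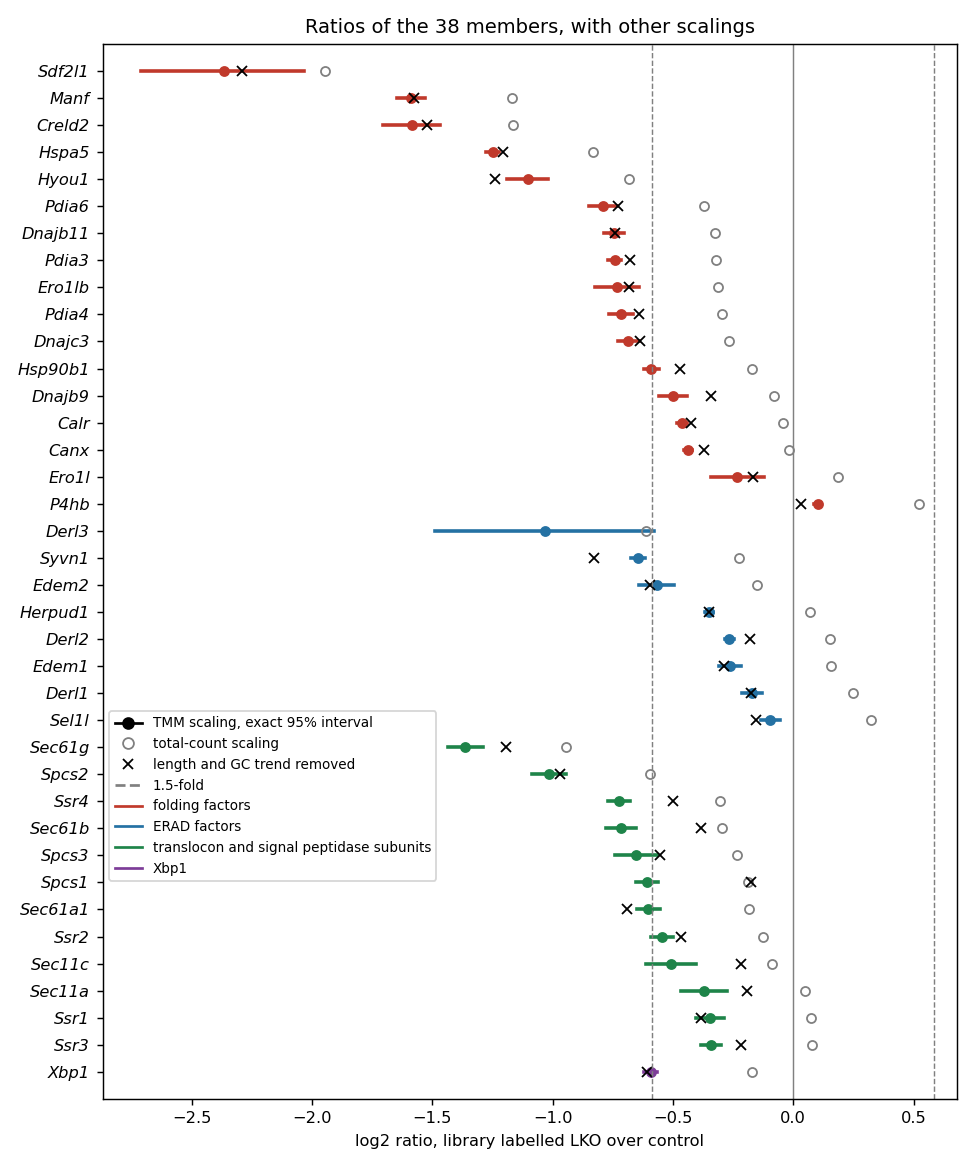
Log2 ratio of each gene (labelled LKO over control) with TMM scaling and its exact 95% interval (filled points and bars), with total-count scaling (open circles) and after removal of the trend with transcript length and GC content (crosses). Dashed lines mark 1.5-fold, and the folding factors at the top reach further left than the ERAD factors.

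Among the member groups, the ERAD factors had the median closest to that of all measured genes. Syvn1 (chr19:6046576-6053718), for the ubiquitin ligase HRD1 that forms the retrotranslocation channel, had 20876 and 18343 counts, 188 and 120 CPM, and was 1.57-fold lower (interval 1.53 to 1.60). It was the exception among the measured ERAD genes. Sel1l, for the adaptor that HRD1 needs, had 10062 and 12963 counts, 90.8 and 85.0 CPM, a ratio only 1.07-fold lower (interval 1.04 to 1.10). The partners of 1 complex thus had unlike ratios, with log2 values of −0.65 and −0.09.

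Herpud1, for a membrane scaffold of the HRD1 complex, had 49795 and 53721 counts, 449 and 352 CPM, and a ratio 1.28-fold lower. The mannosidase-like genes Edem1 and Edem2, whose products mark misfolded glycoproteins, had log2 ratios of −0.26 and −0.57, with 7010 and 8043 counts for Edem1 and 3076 and 2854 for Edem2. The derlins are rhomboid-like membrane proteins of the same route. Derl1 had 8154 and 9963 counts and Derl2 41580 and 47565, with log2 ratios of −0.17 and −0.27. Derl3, the derlin of professional secretory cells, was the 1 gene of the 38 that was not measured, at 104 and 70 counts or 0.938 and 0.459 CPM, with a log2 ratio of −1.03 and 2.04-fold lower. The median of the measured ERAD genes changed sign with total-count scaling, to 0.15, and 2 of 7 then lay below 0.

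Of the 12 translocation subunits 7 were lower, and Sec61g and Spcs2 had the lowest ratios. Sec61g (chr11:16501638-16508484), for the gamma subunit, had 4385 and 2345 counts, 39.6 and 15.4 CPM, and was 2.57-fold lower (interval 2.45 to 2.71). Sec61b, for the beta subunit, had 4701 and 3937 counts and was 1.64-fold lower. Sec61a1 (chr6:88503607-88518800), for the pore-forming alpha subunit, had 6861 and 6220 counts and was 1.52-fold lower (interval 1.47 to 1.57). The channel holds 1 of each subunit, and Sec61g gave 0.639 and 0.377 reads per Sec61a1 read. For Sec61b the same figures were 0.685 and 0.633.

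In the TRAP complex, which sits beside the channel, 1 of 4 genes passed the threshold. Ssr4, for the delta subunit, had 8359 and 6955 counts and was 1.65-fold lower. Ssr2 had 7854 and 7395 counts, Ssr1 4545 and 4919, and Ssr3 8800 and 9550. These had ratios 1.46-fold, 1.27-fold and 1.27-fold lower, and the last pair turned to log2 ratios of 0.07 and 0.08 with total-count scaling.

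Of 5 signal peptidase genes, the 3 for accessory subunits were lower and the 2 for catalytic subunits did not pass the threshold. Spcs2 (chr7:99837569-99870340) had 3898 and 2655 counts, 35.2 and 17.4 CPM, and was 2.02-fold lower (interval 1.92 to 2.12). Spcs3 had 2324 and 2032 counts and was 1.57-fold lower, and Spcs1 had 7857 and 7091 counts and was 1.52-fold lower. Sec11a and Sec11c encode alternative catalytic subunits. Sec11a had 1720 and 1831 counts, a ratio 1.29-fold lower, and Sec11c had 1521 and 1470 counts, a ratio 1.42-fold lower. With the length and GC trend removed, the order changed for Spcs1, whose log2 ratio of −0.18 was then nearer 0 than those of Sec11a (−0.19) and Sec11c (−0.22).

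Transcript length moved with the ratio across the libraries, and 4 of the 12 translocation subunits (Sec61b, Ssr4, Spcs1 and Sec11c) have transcripts under 1 kb. Of all measured genes with a transcript under 1 kb, 31.7% were at least 1.5-fold lower, with a median log2 ratio of −0.37. For transcripts of 3 kb or more the share was 5.38% and the median 0.09. After the trend with length and GC content was removed, 3 of 12 translocation subunits (Sec61g, Spcs2 and Sec61a1) were at least 1.5-fold lower, and the group median was −0.42. For ERAD factors the same adjustment gave 2 of 7 lower and a median of −0.29. The difference between these medians, translocation minus ERAD, went from −0.34 to −0.14. The median of the signal peptidase genes became −0.22, nearer 0 than that of the ERAD factors. Spcs1, with a transcript of 702 bases, went from −0.61 to −0.18, and Sec61b, with 564 bases, from −0.72 to −0.38. Ssr4 and Spcs3 also came inside the threshold, while Edem2 passed it. The folding factors kept 11 of 17 past the threshold and a median of −0.68, and for the 9 HSP70, HSP90 and cofactor genes the median was −1.21.

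Levels of different genes were compared per kilobase of the longest principal transcript. In the control library Herpud1 led the 38 genes at 230.1 CPM per kb, followed by P4hb at 186, Calr at 146 and Canx at 113. In the other library P4hb led, ahead of Herpud1 at 180.5 and Calr at 106 CPM per kb. The lowest in the control library were Derl3 at 0.710, Ero1l at 2.57 and Sdf2l1 at 2.87 CPM per kb. Where liver uses a shorter transcript than the one taken, this level is too low.

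Neighbouring parts of the same pathway were read from other lists. The sensors themselves did not differ by the threshold: by the 1.5-fold rule 0 of 10 measured sensor and transducer genes were higher and 0 lower, and their median log2 ratio was 0.04. Creb3l3, a hepatocyte transducer and the most abundant of them, stood at 95.1 and 97.2 CPM. Creb3 and Eif2ak3 (PERK) had the lowest log2 ratios, −0.38 and −0.17, and Creb3l1 and Mbtps2 the highest, 0.50 and 0.20. Ern1 (IRE1) and Atf6, named after their values were seen, had 2439 and 3486 counts and 3618 and 4845 counts, or log2 ratios of 0.06 and −0.04.

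Genes of the PERK branch and targets of ATF4 went both ways, with 3 higher and 3 lower among 9 measured, and a median of 0.03. Asns, for asparagine synthetase, had 330 and 31 counts and was 14.6-fold lower (interval 10.1 to 21.9), and it was measured only through the control library. Ddit4, an inhibitor of mTORC1, was 3.25-fold lower. On the other side Chac1, which degrades glutathione, was 3.09-fold higher from 164 and 697 counts. Vldlr, a lipoprotein receptor gene that ATF4 can induce, was 14.9-fold higher from 32 and 654 counts, and it was measured only through the library labelled LKO. Atf5, the most abundant, had a log2 ratio of 0.03.

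Other oxidoreductases and prolyl isomerases resembled the folding factors in direction, with 7 of 17 measured at least 1.5-fold lower and 1 higher, and a median of −0.45. Fkbp11, a secretory-cell prolyl isomerase gene, had 554 and 219 counts and was 3.48-fold lower (interval 2.97 to 4.09). Pdia5, another disulfide isomerase gene, was 1.99-fold lower. Fkbp10, a collagen chaperone gene, was the exception at 4.86-fold higher from 38 and 254 counts, and it was measured only through the library labelled LKO. Qsox1, the most abundant, had a log2 ratio of −0.04, and Fkbp14 0.28.

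Of 12 oligosaccharyltransferase genes, which add N-glycans to entering chains, 4 were lower and 0 were higher by 1.5-fold, and the median was −0.46. Ostc and Tmem258 were 1.99-fold and 1.98-fold lower, while Rpn2 and Tusc3 had log2 ratios of −0.03 and −0.01. The signal recognition particle and other targeting factors had 5 of 16 measured genes lower and 1 higher, with a median of −0.29. Srp19 and Srp9 were 1.93-fold and 1.71-fold lower, and Tram2, a partner of the channel in collagen synthesis, was 1.69-fold higher. Asna1 and Srpr had log2 ratios of 0.17 and −0.21. Other HSP70 cofactors and folding factors had 2 of 13 lower, Serp1 at 1.73-fold and Sdf2 at 1.65-fold, with a median of −0.23. Dnajc1 and Dnajc25 had the highest log2 ratios of that list, 0.18 and 0.03.

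Glycoprotein quality control had 0 of 10 genes past the threshold in either direction and a median of −0.17, with Uggt1, the folding sensor of glycoproteins, at −0.52 and Mcfd2, a cargo receptor subunit, at −0.51. Man1b1, Man1a2 and Prkcsh stood at 0.17, −0.09 and −0.09. The other ERAD factors had 2 of 24 genes lower and 0 higher and a median of −0.13. That share is near the 9.76% of all genes. The lower genes were Vimp at 2.23-fold and Ubxn4 at 1.52-fold, while Aup1, the most abundant, had a log2 ratio of −0.02, and Dnajb12 and March6 had the highest, 0.54 and 0.40. COPII export genes, which carry folded cargo out of the ER, had 1 of 19 lower and 2 higher, with a median of 0.12. Sec23b was 1.72-fold lower, Tmed9 had a log2 ratio of −0.54, and Sec31b and Sec24a were 1.84-fold and 1.53-fold higher.

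Chaperones outside the ER were read for comparison. By the 1.5-fold rule 8 of 18 genes on the cytosolic heat shock list were lower and 0 were higher, and the median was −0.35. The 8 include Hspe1, a mitochondrial chaperone gene that is on both lists. Hspa8, the constitutive cytosolic HSP70 gene, was 1.83-fold lower, and Hsp90aa1 and Hsph1 were both 1.95-fold lower, while Hspb1 and Hspa1b had log2 ratios of 0.32 and 0.27. Among 11 mitochondrial chaperone and protease genes 1 was lower, Hspe1, which is also in the cytosolic list, and 1 higher, Grpel2 at 2.34-fold, with a median of −0.09. Grpel1, Htra2 and Hspa9 had log2 ratios of −0.46, 0.22 and −0.09. With total-count scaling, the medians of the signal recognition, other cofactor, glycoprotein, other ERAD, cytosolic and mitochondrial lists were positive, from 0.07 to 0.33.

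**Figure D5:**
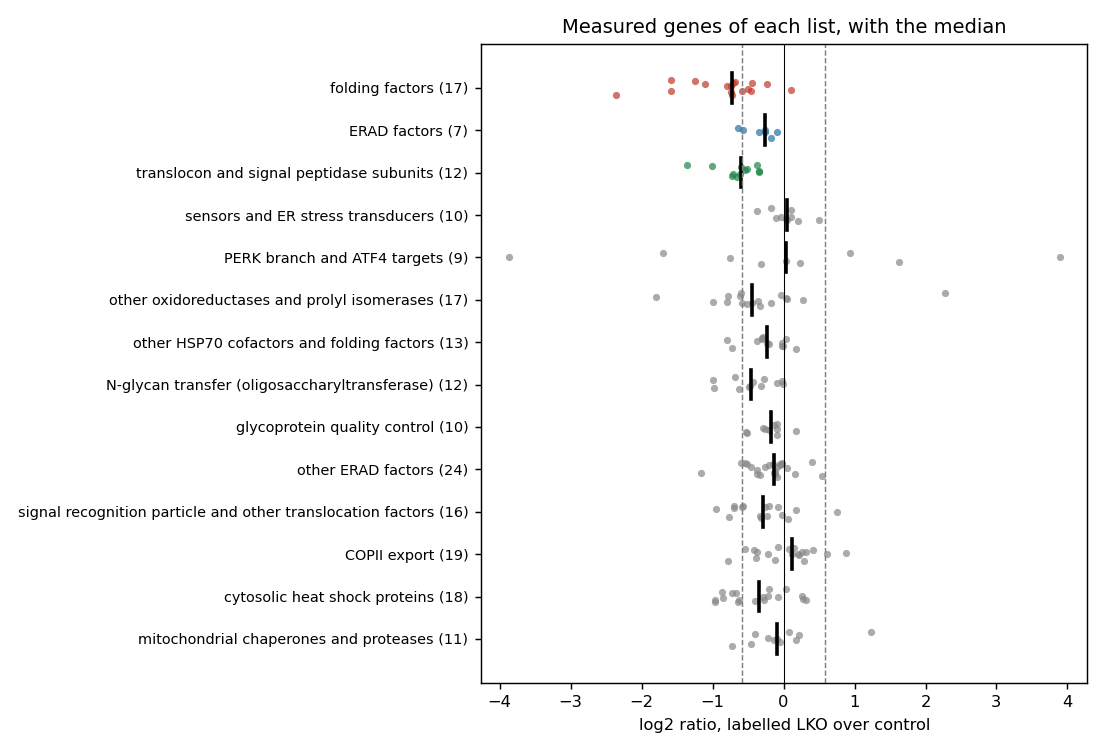
Log2 ratio (labelled LKO over control) of each measured gene in the member groups (coloured) and in the other lists (grey), with the median of each as a black bar, the number of measured genes in parentheses and 1.5-fold as dashed lines; vertical scatter within a row carries no value. The folding factors have the lowest median, at −0.73, and the COPII export genes the highest, at 0.12.

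Markers of cell types that could add these transcripts were read beside them. Hepatocyte markers were high in both libraries, summing to 160711 and 118157 CPM over 5 genes, with 2 of 5 at least 1.5-fold lower and a median log2 ratio of −0.37. Those sums depend on the scaling, and TMM-scaled levels of all measured genes summed to 1155012 and 863058 CPM. With total-count scaling the log2 ratios were 0.05 for Alb, 0.19 for Apoa1, 0.09 for Ttr, −0.74 for Tat and −0.38 for Serpina1a. Plasma cells and pancreatic acinar cells hold much of this machinery. Of 8 plasma cell markers 4 were in the table and 0 measured, and they summed to 1.04 and 0.708 CPM. Of 7 acinar markers, Cpa1, Ctrb1, Pnlip, Prss2 and Amy2a5 were at 0 in both libraries. The 7 summed to 4.80 and 2.07 CPM, and Cela1, the 1 measured, was lower. Of 6 Kupffer cell markers 5 were measured, all 5 were lower with TMM scaling, and the 6 summed to 73.8 and 39.5 CPM. With total-count scaling Timd4 had a log2 ratio of −0.81. Clec4f, Vsig4, Cd5l and Adgre1 then lay between −0.51 and −0.30, short of 1.5-fold. Stellate cell and fibroblast markers were higher in 4 of 7 genes and lower in 0, summing to 191 and 276 CPM. Of those sums Dcn, not past the threshold, held 158 and 210 CPM, and Lrat had a log2 ratio of −0.18. With total-count scaling the 7 log2 ratios ran from 0.24 to 3.12. Col1a1, Dcn and Lrat were named after their values were seen, and Col1a1 had 159 and 1418 counts. Endothelial markers had 0 of 5 past the threshold with TMM, and their log2 ratios ran from 0.08 to 0.91 with total-count scaling. Of cholangiocyte and infiltrating leukocyte markers 2 of 5 and 1 of 5 were measured, with 0 past the threshold. The part of any of these cells in the values of the 38 genes was not tested. In whole liver, fewer cells of a type and less RNA per cell cannot be told apart.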

How the data were processed

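The deposited values are raw counts, whole numbers for each gene symbol in 1 column per library. Per the labels' protocols, Trizol RNA entered a LEXOGEN mRNA-Seq kit. Per the submitters' processing notes, TopHat, edgeR and build mm10 were used. The counter, its annotation, any use of strand and the handling of multiply aligned reads were not given in the sources used here. Exons of 11 of the 38 genes share bases with another counted gene, so their reads cannot be told apart with certainty.

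Counts were scaled with TMM factors of 0.865 and 1.16 (edgeR 4.0.16, R 4.3.3; DESeq2 1.42.0 for an alternative). Intervals are 95% Clopper-Pearson, conditional on the sum of both counts (scipy 1.17.1). PCR duplicates are not independent molecules, so intervals cover counting error only. The trend with length and GC content was fitted by lowess (fraction 0.3). Ribosomal protein, respiratory chain and ATP synthase genes, picked by symbol, were left out of the fit. The fitted trend was then removed from all 11054 measured genes with a length and GC content. Only the ratios, intervals and calls were checked on simulated counts, which held counting error and no spread between mice. The trend removal, the TMM scaling and the motif search were not checked in this way. Lengths are from GENCODE M21, coordinates and promoters from RefSeq (GRCm38.p6, the assembly of mm10).

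The 38 genes and all lists were chosen with earlier results of these data known. The text names all 38, and from each other list the 2 highest and 2 lowest ratios and the most abundant measured gene; exceptions are marked.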

Additional observations from a re-analysis of the deposited data

How the results depend on the processing

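No paired analysis was possible because each genotype has 1 library, and for the same reason no replicate could be left out. No alternative put any of the 38 genes at 1.5-fold or more above control. With total-count scaling, 7 were at least 1.5-fold lower instead of 21. These 7, Creld2, Hspa5, Hyou1, Manf, Sdf2l1, Sec61g and Spcs2, are also the 7 past a threshold of 2-fold. The medians under total counts were −0.31 for folding factors, 0.15 for ERAD factors and −0.19 for translocation subunits, and with the 20 most abundant genes left out of the totals they were −0.61, −0.15 and −0.48, with 14 genes lower. With no filter, which adds Derl3, the ERAD median was −0.31. Removal of the length and GC trend gave −0.42 for translocation subunits and −0.29 for ERAD factors, and left 17 genes at least 1.5-fold lower. The shares of all measured genes past 1.5-fold were taken with TMM and no trend removal. They do not apply to the other scalings or to ratios with the trend removed. An alternative chosen after seeing the data, the 26 measured genes without exon overlap, held 13 lower genes. Fewer genes entered, and the share of lower genes was also smaller than among all measured genes of the 38. Median-of-ratios and upper-quartile scaling, 5 added counts and a minimum of 10 CPM left 20 or 21 genes lower. Counting error is widest for Sdf2l1 and Derl3, which had the fewest counts. For every gene the spread between mice is unknown, since each genotype has 1 library.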
